A study of Mus musculus with 3 samples.

Results

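The Hedgehog pathway genes described here are the ligands Shh and Ihh, the receptor Ptch1, the ligand-binding antagonist Hhip, the signal transducer Smo, the transcription factors Gli1, Gli2 and Gli3, and the Gli inhibitor Sufu. They were chosen by gene name, and all 9 were found under their own name among the 25350 genes of the RNA-seq files, with 0 of them in a locus that carries several names. RNA-seq was done on 1 sample each of wild-type mouse ES cells (WT), of Pcgf1KO ES cells (written Pcgf1-/-, the knockout), in which CRISPR/Cas9 cut exons 2 and 3 of Pcgf1 and the DNA between the cuts was lost, and of Pcgf1KO+ Pcgf1_flag ES cells (written Pcgf1-/-+Pcgf1, the rescue), in which a lentivirus gave the Pcgf1-/- cells back a FLAG-tagged Pcgf1 under puromycin selection. All 3 samples were labelled C57BL/6 and were grown undifferentiated in serum and leukemia inhibitory factor on mitomycin-treated mouse embryonic fibroblasts. The knockout cells were taken from single colonies, and the rescued cells are a derivative of such cells. The question asked with these samples was which transcripts depend on Pcgf1, a subunit of the variant Polycomb complex PRC1.1. The values below describe 3 libraries, and none of their differences can be set against replicates.

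In the Hedgehog pathway, a secreted ligand binds Ptch1, a membrane protein that otherwise keeps Smo inactive. Active Smo, working at the primary cilium, releases the Gli factors from Sufu and from processing into repressors, and Gli1 and Gli2 then activate target genes. Ptch1, Gli1 and Hhip are themselves textbook targets of the pathway, and both Ptch1 and Hhip limit signalling by binding the ligand. The pathway is best known for patterning the neural tube, limbs and gut of the embryo.

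The ES cells expressed the receptor, the transducer, the Gli factors and Sufu, whereas both ligands were near the lowest values that the files hold. Hhip was the member with the largest difference between samples, with its lowest level in Pcgf1-/-. The other 8 members stayed within 2-fold in all 3 comparisons once 0.1 FPKM was added to each value. For Shh and Ihh this was fixed in advance, since values below 0.1 FPKM cannot pass 2-fold after this addition. Levels are given as FPKM, fragment counts scaled by transcript length and by the mapped fragments of the sample, a scale on which genes can be compared per length. FPKM was summed over a gene's first exons and over its last exons, and the larger sum was used. Every ratio was taken after this addition unless stated otherwise, and past 2-fold a gene was called changed, without a test. In this bulk RNA, fewer cells expressing a gene and less RNA per cell cannot be told apart.

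**Figure D1:**
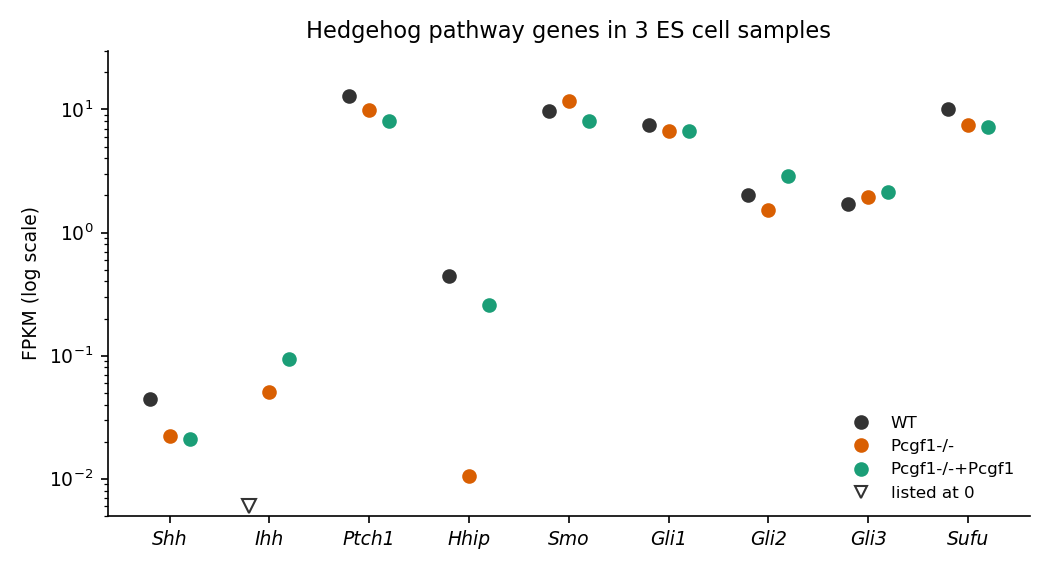
FPKM of the 9 Hedgehog pathway genes (log axis) in WT, Pcgf1-/- and Pcgf1-/-+Pcgf1 ES cells, 1 point per sample; the open triangle marks the value of 0 listed for Ihh in WT. Ptch1, Smo, Gli1 and Sufu lie between 6.67 and 12.9 FPKM in every sample, and Hhip falls to 0.0105 FPKM in Pcgf1-/-.

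Some facts of the whole series bear on these values. Pcgf1 (chromosome 6 of mm10, 83077869 to 83080855) had 13.9523 FPKM in WT, 5.8842 in the knockout and 7.8619 in the rescue, values that cover exons left in place and so do not check the deletion. Of 8 ES cell markers, 6 were listed under their own name, 0 of them at 0 in all samples, and their sum was 1908 FPKM in both WT and Pcgf1-/- and 1720 in Pcgf1-/-+Pcgf1. Within this list 0 passed 2-fold in Pcgf1-/- against WT, and 1, Nanog, was past 2-fold higher from knockout to rescue, with 68.2349 FPKM in WT, 46.3384 in the knockout and 123.047 in the rescue. Of 24 fibroblast markers, 22 were measured, and Postn and Fap were at 0 in all 3 samples. The 22 summed to 49.98 FPKM in WT, to 31.21 in the knockout and to 47.28 in the rescue. Against WT, 6 of the 22 were past 2-fold lower in Pcgf1-/- (Col1a1, Col1a2, Col6a1, Thy1, Pdgfrb and Mmp2) and 0 were past 2-fold higher, beside 4.98% and 2.16% of all genes. From knockout to rescue 7 were past 2-fold higher and 1 (Twist1) lower, beside 6.35% and 2.22%. The same shares stand beside the other marker lists. The sum of the fibroblast markers moved in the same direction as Hhip, in cultures that stood on fibroblast feeders, and their part in the Hhip result was not tested. Thy1 (14.2139 FPKM in WT, 6.3891 in the knockout) and Mmp2 (14.9418 and 7.1204) weigh most in this sum. Dcn, Twist1, Loxl1, Thbs1 and, slightly, Lox and Col5a1 were higher in the knockout than in WT, within 2-fold. Of the 7 measured primitive endoderm markers, Gata6 and Sox7 were past 2-fold higher in Pcgf1-/- than in WT, and Afp and Ttr were at 0 in all samples. Both calls rest on low values. Gata6 had 0.1361 FPKM in WT, 0.41 in the knockout and 0.129 in the rescue, and Sox7 had 0.1435, 0.4138 and 0.6484. Of the 5 measured neural progenitor markers, 0 passed 2-fold in any comparison, and they summed to 0.895 FPKM in WT, to 0.5422 in the knockout and to 1.133 in the rescue.

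Hhip encodes a membrane-anchored glycoprotein that binds all Hedgehog ligands and takes them away from Ptch1. The gene (ENSMUSG00000064325) lies on the minus strand of chromosome 8 of mm10, from 79965851 to 80058006, and GENCODE vM21 gives it 2 transcripts. The protein-coding transcript has 13 exons. The other has 6 exons, is annotated as a processed transcript without a coding sequence, and starts inside the gene at 79990349; it is called the short transcript here. The study chose Hhip from the target genes of this same RNA-seq, so its pattern across the 3 samples is a description and not independent evidence.

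The study's primers show which part of the gene its other assays read, and they are given here because the lists give the transcripts different values. A search of 141767 annotated transcripts found both RT-qPCR primers in the coding transcript of Hhip alone, where they span 150 bases from exon 2 to exon 3, bases 895 to 1044 of the transcript. Both ChIP primers lie in exon 1, bases 111 to 229, upstream of the start codon at base 492 (chr8:80057778-80057896, mm10). The short transcript holds neither pair. By RT-qPCR the study reported less Hhip RNA in Pcgf1-/- than in WT ES cells. By ChIP it reported FLAG-tagged Pcgf1 at the Hhip promoter, and less BcoR, Ring1B and H2AK119ub1 there in Pcgf1-/-. Those assays are not part of the data described here. The primers read as follows, 5′ to 3′.
RT-qPCR forward: tagcacttccactcctctgc
RT-qPCR reverse: tcgggaagtctggaaagcat
ChIP forward: cggttcctgctactgtctca
ChIP reverse: gttgggaagtgggaggagaa

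The summed Hhip value was 0.4434 FPKM in WT, 0.0105 in the knockout and 0.2558 in the rescue. Only in WT did the lists give signal to the short transcript. There, 0.2577 FPKM (58.1% of the last-exon sum) was listed at the last exon of the short transcript. The other 0.1857 FPKM (41.9%) was listed for the coding one, the same value as at exon 1. In both other samples the short transcript was listed at 0, and the whole value was listed for the coding one. GENCODE gives the coding transcript a last exon from 79965853 to 79972526, which covers the last exon of the short one. The lists give it only 79970345 to 79972526. Reads at 79966115 to 79966428 could therefore come from either transcript, and the split was not tested.

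On the summed value, the log2 ratio was -2.30 for Pcgf1-/- against WT, 1.69 for Pcgf1-/-+Pcgf1 against Pcgf1-/- and -0.61 for Pcgf1-/-+Pcgf1 against WT. For the coding transcript alone, as the lists draw it, the corresponding log2 ratios were -1.37, 1.69 and 0.32. The order of the WT and the rescued sample thus depended on whether the signal listed for the short transcript was counted. The rescued sample lay below WT on the sum and above WT on the coding transcript. Without a pseudocount, the coding transcript in Pcgf1-/- had 0.0565 times its WT level, and in Pcgf1-/-+Pcgf1 it had 1.38 times its WT level.

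These Hhip values rest on few fragments. The files hold no counts, but low values pile up in steps, and after multiplication by transcript length in kilobases the first step lay at 0.0517 in WT, 0.0484 in the knockout and 0.0497 in the rescue. If this step is 1 fragment, and with the 4582 bases that the lists give the coding transcript, its levels correspond to about 16 fragments in WT, 1 in the knockout and 24 in the rescue. Exact 95% Poisson intervals, which cover counting error only, run from 9.15 to 26 for WT, from 0.0253 to 5.57 for Pcgf1-/- and from 15.4 to 35.7 for Pcgf1-/-+Pcgf1. The interval for Pcgf1-/- lies below the other 2, which overlap each other. The ratio of Pcgf1-/- to WT then has an exact 95% interval of 0.0014 to 0.377, that of Pcgf1-/-+Pcgf1 to Pcgf1-/- one of 4.02 to 1013, and that of Pcgf1-/-+Pcgf1 to WT one of 0.735 to 2.91. These intervals compare 3 libraries and say nothing of the spread between cultures. They also take no account of the study's choice of Hhip from these same data. The 0.2577 FPKM listed for the short transcript in WT correspond to about 4.5 fragments.

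**Figure D2:**
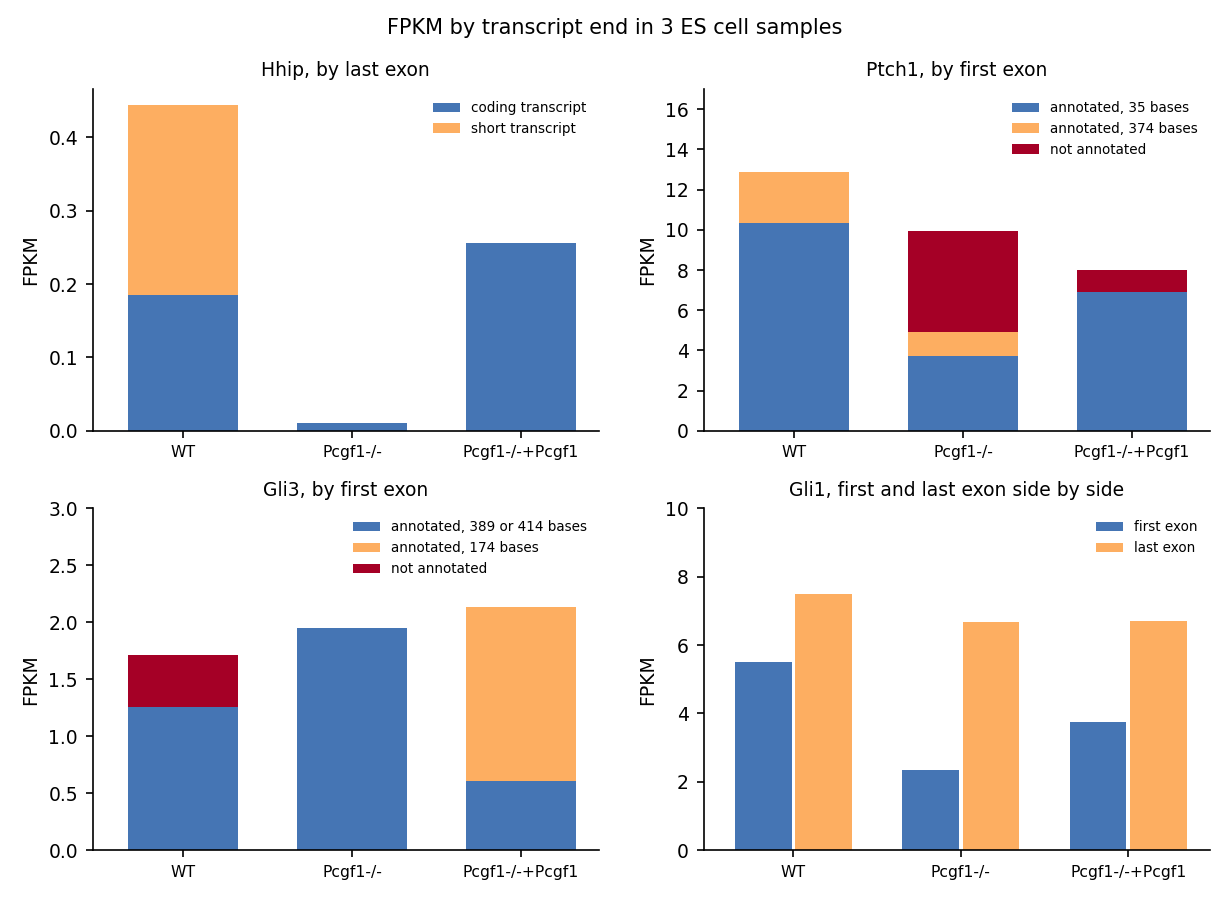
FPKM (linear axes from 0) in the 3 samples, stacked by last exon for Hhip and by first exon for Ptch1 and Gli3, and with first and last exon side by side for Gli1; each bar is 1 sample, and first exons are annotated where their inner boundary is that of a first exon in GENCODE vM21, with their length in bases. The last exon listed for the short Hhip transcript, which the annotated coding last exon overlaps, carries signal in WT alone, at 0.2577 FPKM. The unannotated Ptch1 first exon carries 5.0361 FPKM in Pcgf1-/- and 1.0572 in Pcgf1-/-+Pcgf1.

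PRC1.1 is recruited to unmethylated CpG-rich promoters through its subunit Kdm2b, so the CpG content of the promoters is given as background to the list. RefSeq promoter windows (GRCm38.p6) were at hand for 7 of the 9 members. In the 250 bases upstream of the start, Hhip had 28 CpG, more than 92.4% of the 32851 windows of all genes, whose median was 6. The 250 bases of Hhip (chr8:80058009-80058258, minus strand) are shown 5′ to 3′ with each CpG in capitals, as an example of a CpG-rich start.
Hhip upstream: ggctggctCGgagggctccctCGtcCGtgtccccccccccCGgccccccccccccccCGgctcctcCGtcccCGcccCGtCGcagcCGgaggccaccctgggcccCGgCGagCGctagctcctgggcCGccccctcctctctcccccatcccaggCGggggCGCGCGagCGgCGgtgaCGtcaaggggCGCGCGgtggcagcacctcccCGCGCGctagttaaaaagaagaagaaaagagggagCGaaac
The counts of the other members were 41 for Ptch1, 34 for Gli3, 24 for Ihh, 22 for Gli2, 15 for Smo and 8 for Sufu. The Sufu window, the lowest of the 7, had more CpG than 57% of all windows (chr19:46396646-46396895, plus strand), and it is shown as the contrast to Hhip.
Sufu upstream: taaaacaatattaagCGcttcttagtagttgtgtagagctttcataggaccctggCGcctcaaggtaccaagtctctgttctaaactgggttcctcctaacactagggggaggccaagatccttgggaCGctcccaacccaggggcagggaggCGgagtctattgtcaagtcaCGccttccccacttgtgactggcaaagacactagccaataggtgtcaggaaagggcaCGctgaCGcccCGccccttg
Ptch1 and Gli3 thus had more CpG than Hhip in these windows. The Ptch1 window lies upstream of its 374-base first exon, which carried 19.6% of the first-exon FPKM in WT. Whether CpG content bears on the levels was not tested. The Gli binding motif GACCACCCA (TGGGTGGTC on the other strand), searched on both strands in the 300-base windows, was found in 0 of the 7, and 0.253% of all windows held it. With so rare a motif, 0 of 7 was the likely count in any case, so it says nothing of Gli sites at these genes. Gli1 and Shh had no window.

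The ligands were close to the floor of the data. Shh (ENSMUSG00000002633, chromosome 5, 28456815 to 28467256), the ligand of the notochord, floor plate and limb bud, had 0.0442 FPKM in WT, 0.022 in the knockout and 0.0209 in the rescue. These values correspond to about 2.4, 1.3 and 1.2 fragments, so that WT was higher than the other samples by about 1 fragment. Ihh (ENSMUSG00000006538, chromosome 1, 74945315 to 74951672), known from cartilage and visceral endoderm, was listed at 0 in WT and had 0.0504 FPKM in Pcgf1-/- and 0.0935 in Pcgf1-/-+Pcgf1, about 2.3 and 4.2 fragments. No fold against WT is given for Ihh because of this 0. Differences in both ligands were not detectable at this depth.

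The receptor and the transducer were among the better expressed members. Ptch1 (ENSMUSG00000021466, chromosome 13, 63508328 to 63573598) had 12.8537 FPKM in WT, 9.9546 in the knockout and 7.9872 in the rescue. In WT this was above 68.1% of the genes with a value above 0. The log2 ratio was -0.37 for Pcgf1-/- against WT and -0.68 for Pcgf1-/-+Pcgf1 against WT, so that the rescued sample lay farther from WT than the knockout. Smo (ENSMUSG00000001761, chromosome 6, 29735503 to 29761365) had 9.6294 FPKM in WT, 11.709 in the knockout and 8.1076 in the rescue. It was highest in the knockout, with a log2 ratio of 0.28 against WT and of -0.52 from knockout to rescue.

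The first exons of Ptch1 differed more than its total. In WT, 80.4% of the first-exon FPKM (10.3303) came from the annotated first exon at 63564292 to 63564326, 35 bases long, and 19.6% (2.5234) from the one at 63565362 to 63565735, 374 bases long. In Pcgf1-/-, these had 3.7312 and 1.1873 FPKM, and 50.6% of the sum (5.0361 FPKM) came from a first exon at 63563029 to 63563063 that matches no annotated first exon of the gene. In Pcgf1-/-+Pcgf1, the 35-base first exon had 6.93 FPKM, the 374-base one was listed at 0, and a first exon with the same inner boundary as the unannotated one had 1.0572 FPKM, 13.2% of the sum. No first exon at that place is listed for WT. The lists do not show how many reads support a start.

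The Gli factors are the transcription factors of the pathway. Gli1, an activator and itself a target gene (ENSMUSG00000025407, chromosome 10, 127329882 to 127341974), had 7.5049 FPKM in WT, 6.6666 in the knockout and 6.7009 in the rescue, all read at its last exon. The samples differed little on this value, with a log2 ratio of -0.17 for Pcgf1-/- against WT and 0.01 for Pcgf1-/-+Pcgf1 against Pcgf1-/-. Its first exon carried less, 5.5179 FPKM in WT, 2.3425 in the knockout and 3.7612 in the rescue, which is 73.5%, 35.1% and 56.1% of the last-exon value. With first exons alone, the log2 ratio of Pcgf1-/- against WT was -1.20, past 2-fold. The WT list also holds a retained intron of Gli1 at 127336112 to 127336412, with 1.987 FPKM for transcripts that keep it and 5.5179 for those that remove it; the event is not listed for the other samples.

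Gli2, the main activator downstream of Smo (ENSMUSG00000048402, chromosome 1, 118834132 to 119053619), had 2.0029 FPKM in WT, 1.5101 in the knockout and 2.8543 in the rescue. It was lowest in the knockout and highest in the rescued sample, with a log2 ratio of -0.39 for Pcgf1-/- against WT and of 0.88 for Pcgf1-/-+Pcgf1 against Pcgf1-/-. The latter was the largest difference among the members other than Hhip in this comparison. The Gli2 exon-skipping events held 3 distinct transcript values in WT, 2 in the knockout and 1 in the rescue, which in each sample add up to the gene's FPKM after rounding. In WT, 1.0679 FPKM (53.3%) belonged to transcripts without the exons from 118866572 to 118890401, exons 3 to 5 of the first-numbered GENCODE transcript. A further 0.3807 FPKM (19%) belonged to transcripts without exons 2 to 4. In Pcgf1-/-, 0.5305 FPKM (35.1%) belonged to transcripts without exon 2, which is 167 bases long. In the rescue, the whole 2.8543 FPKM were given to transcripts that keep exons 2 to 5.

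Gli3, the main repressor of the family when the ligand is absent (ENSMUSG00000021318, chromosome 13, 15463235 to 15730026), had 1.7141 FPKM in WT, 1.9528 in the knockout and 2.1356 in the rescue. The log2 ratio was 0.18 for Pcgf1-/- against WT and 0.30 for Pcgf1-/-+Pcgf1 against WT, so the 3 samples lay close together. Their first exons did not. An annotated first exon that ends at 15464111 carried 73.1% of the WT value, the whole value in Pcgf1-/- and 28.5% in Pcgf1-/-+Pcgf1. In the rescue the remaining 71.5% (1.5259 FPKM) came from the annotated first exon at 15463235 to 15463408, which was listed at 0 in both other samples. In WT the remaining 26.9% (0.4614 FPKM) came from an unannotated first exon at 15659741 to 15660175, inside the gene.

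Sufu, which binds the Gli factors and holds them back in the cytoplasm (ENSMUSG00000025231, chromosome 19, 46396896 to 46488804), had 9.9933 FPKM in WT, 7.4924 in the knockout and 7.1365 in the rescue. It was highest in WT, with a log2 ratio of -0.41 for Pcgf1-/- and of -0.48 for Pcgf1-/-+Pcgf1 against WT. All of its signal in each sample came from 1 first exon, which ends at 46397284, and from transcripts that keep the exon at 46401124 to 46401258. Ordered by level in WT, the members ran Ptch1, Sufu, Smo, Gli1, Gli2, Gli3, Hhip, Shh and Ihh. Without replicates, the order of neighbours such as Sufu and Smo, whose WT levels were 9.9933 and 9.6294 FPKM, cannot be set against a spread, and in Pcgf1-/- Smo was above Sufu and Ptch1.

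Across the members, 1 of 9 (Hhip) was past 2-fold lower in Pcgf1-/- than in WT and 0 of 9 were past 2-fold higher, beside 4.98% and 2.16% of all 25350 genes. In Pcgf1-/-+Pcgf1 against Pcgf1-/-, 1 of 9 (Hhip again) was past 2-fold higher and 0 were past 2-fold lower, beside 6.35% and 2.22% of all genes. Both comparisons use the same Pcgf1-/- sample. Shh and Ihh, below 0.1 FPKM in every sample, could not be called in any comparison. In Pcgf1-/-+Pcgf1 against WT, 0 of 9 members were past 2-fold, beside 2.36% of all genes lower and 3.99% higher. The members' median log2 ratio was -0.24 for Pcgf1-/- against WT, 0.01 for Pcgf1-/-+Pcgf1 against Pcgf1-/- and -0.25 for Pcgf1-/-+Pcgf1 against WT. Over the 14060 genes above 0 in at least 1 sample, the medians were -0.09, 0.04 and -0.06. Among those 14060 genes, the shares called in either direction were 12.9%, 15.5% and 11.4%, so that 1 called member of 9 is near the background in the first 2 comparisons.

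**Figure D3:**
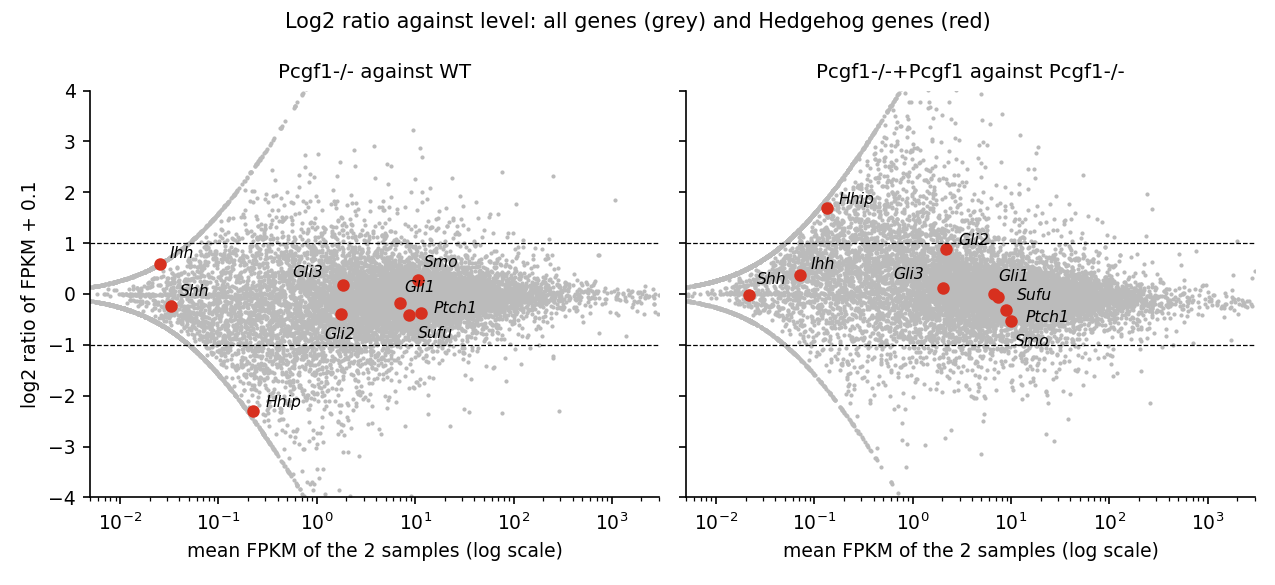
Log2 ratio of FPKM + 0.1 against the mean FPKM of both samples (log axis), for Pcgf1-/- against WT (left) and Pcgf1-/-+Pcgf1 against Pcgf1-/- (right); grey points are all genes above 0 in either sample, red points the 9 Hedgehog genes, dashed lines 2-fold, and genes beyond the axis limits are not drawn. The point of Ihh on the left rests on a WT value of 0. Hhip, at -2.30 and 1.69, is the member outside the dashed lines, near the edge where a gene has no value in the knockout.

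The genes whose levels over the 3 samples were nearest to those of Hhip, by Euclidean distance of log2(FPKM + 0.1), were Sp140, Dlec1, Gm15389, 9230117E06Rik and Chrnd, at distances of 0.19 to 0.30. Sp140, for example, had 0.3987 FPKM in WT, 0 in the knockout and 0.2553 in the rescue. All 5 were listed at 0 in Pcgf1-/-. With 3 samples and low values such likeness is common, and 151 genes lay within a distance of 1.

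The other genes of the pathway formed a list of 53, of which 47 were measured, 3 lay in a locus with several names in at least 1 file (Arrb2, Efcab7 and Gsk3a) and 3 (Gas1, Foxf1 and Foxl1) were not found by name. In Pcgf1-/- against WT, 2 of 47 were past 2-fold lower and 1 past 2-fold higher, beside 4.98% and 2.16% of all genes. In Pcgf1-/-+Pcgf1 against Pcgf1-/-, 3 were past 2-fold higher and 1 past 2-fold lower, beside 6.35% and 2.22% of all genes. Against WT 0 of 47 passed 2-fold in the rescue, beside 2.36% of all genes lower and 3.99% higher. These counts lie near or below the shares of all genes. Among the 14060 genes above 0 in at least 1 sample, the shares in either direction were larger, at 12.9%, 15.5% and 11.4%. Only 2 of the 47 listed genes were at 0 in all samples. The list's median log2 ratio was -0.19, 0.01 and -0.12 in the 3 comparisons.

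Gpc3, a cell-surface glypican that binds Hedgehog ligands and restrains signalling, had the highest level of the genes past 2-fold, at 21.1748 FPKM in WT, 6.7392 in the knockout and 17.4672 in the rescue. Its log2 ratio was -1.64 for Pcgf1-/- against WT and 1.36 for Pcgf1-/-+Pcgf1 against Pcgf1-/-. Stk36, the mammalian relative of the fly kinase Fused, had 2.5752 FPKM in WT, 0.6982 in the knockout and 1.5332 in the rescue, with log2 ratios of -1.74 and 1.03, all read at its first exons because its last exons were listed at 0 in every sample. Gpc3 and Stk36 had WT above rescue above knockout, the order of the summed Hhip value. The Hhip coding transcript, as the lists draw it, was instead highest in the rescue. Dhh, the ligand of the testis and peripheral nerve, ran the other way, listed at 0 in WT, with 0.3649 FPKM in Pcgf1-/- and 0.0788 in Pcgf1-/-+Pcgf1. Disp1, which releases the lipid-bearing ligand from the sending cell, had 2.9485 FPKM in WT, 2.4012 in the knockout and 4.9904 in the rescue, and passed 2-fold from knockout to rescue alone, at a log2 ratio of 1.03. That call rests on its first exons, since its last exons had 2.4011 FPKM in Pcgf1-/- and 2.0658 in Pcgf1-/-+Pcgf1.

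By role, the 12 measured kinases and turnover factors of the Gli proteins stayed between log2 ratios of -0.50 and 0.47 in Pcgf1-/- against WT. Csnk1a1 and Prkar1a, which act in the phosphorylation of Gli factors, had 81.7284 and 64.6984 FPKM in WT, and 89.9703 and 68.082 in Pcgf1-/-. Cul1, the scaffold of the ligase that processes the Gli factors, had 27.4616 FPKM in WT, 38.0537 in the knockout and 41.5018 in the rescue. In the same comparison, all of the 8 cilium genes but Stk36 lay within 2-fold, and all 5 measured Smo partners did. Beside them stand 4.98% of all genes lower and 2.16% higher, and 12.9% called among the genes above 0 in at least 1 sample. With so few genes per role, these counts cannot be set apart from those shares.

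Of 10 measured target genes, 0 passed 2-fold in any comparison, a count to be read beside the 4.98% lower and 2.16% higher of all genes in Pcgf1-/- against WT. For Bcl2, Nkx2-2, Foxf2, Foxa2 and Nkx6-1 this was fixed in advance, since each was below 0.1 FPKM in every sample. Olig2 came near the limit, with 39.004 FPKM in WT, 43.1239 in the knockout and 21.9921 in the rescue. Its log2 ratio from knockout to rescue was -0.97. Mycn, the highest of them, had 157.62 FPKM in WT, 88.2954 in the knockout and 128.137 in the rescue, a log2 ratio of -0.84 for Pcgf1-/- against WT, with its last exon listed at 0 in Pcgf1-/- alone. Ccnd1, the cyclin D1 gene, had 38.922, 38.192 and 38.3085 FPKM in the same order and so was nearly level. Bcl2 and Nkx2-2 were listed at 0 in all 3 samples.

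**Figure D4:**
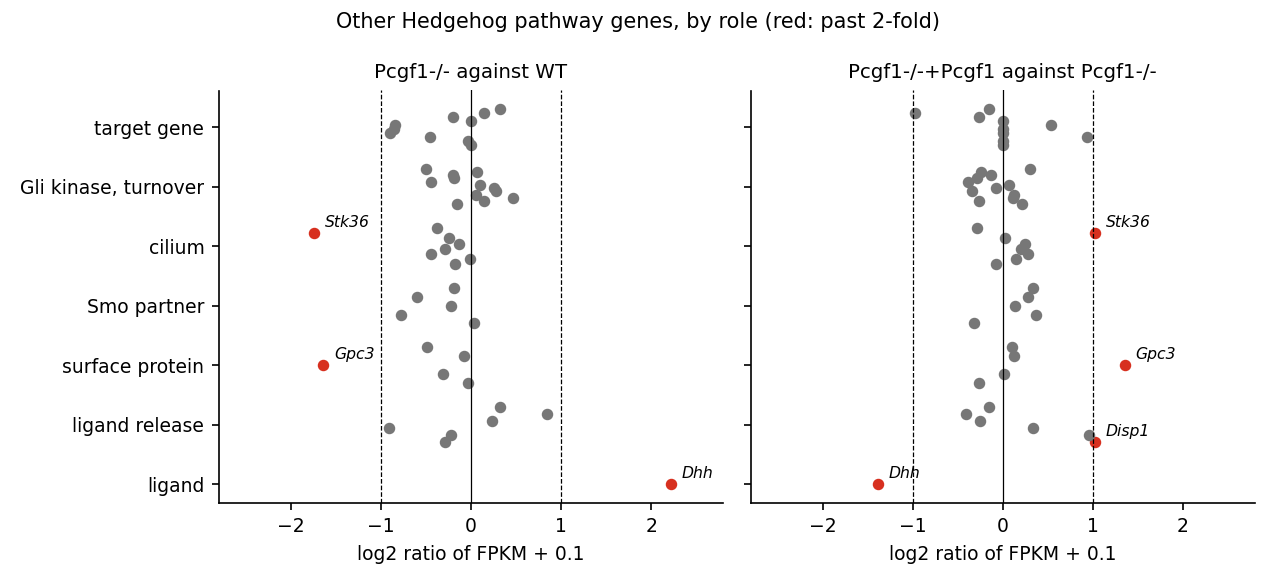
Log2 ratio of FPKM + 0.1 for the 47 other measured Hedgehog pathway genes, 1 point per gene, grouped by role, for Pcgf1-/- against WT (left) and Pcgf1-/-+Pcgf1 against Pcgf1-/- (right); red points with names are past 2-fold (dashed lines), and the point of Dhh on the left rests on a WT value of 0. Gpc3 and Stk36 lie at -1.64 and -1.74 on the left and at 1.36 and 1.03 on the right.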

How the data were processed

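RNA was enriched for poly(A) and sequenced as paired ends. The submitters' processing notes name the build mm10, TopHat2 2.0.12, Cufflinks 2.2.1 and HTSeq 0.6.0. For each of 3 samples the authors deposited 1 table of exon and splicing events in FPKM. The software behind these tables is not given in the sources used here. No counts were analysed, so no count test was run, and depth is known only through the steps of low values, taken from genes with 1 annotated transcript longer than 2000 bases.

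First-exon and last-exon rows were summed per gene name and the larger sum was used. Names shared by several genes, missing names and names turned into dates were left out, as were genes not named in all 3 files. Ratios used a pseudocount of 0.1 FPKM, which understates the change of low genes, and a 2-fold limit. The members and lists were chosen with earlier results of these data known. Named were all members, the other pathway genes past 2-fold or among the 5 highest by mean FPKM over the 3 samples (Mycn, Csnk1a1, Prkar1a, Ccnd1 and Cul1), the 5 genes nearest to Hhip, Pcgf1 and the markers past 2-fold in Pcgf1-/- against WT; other genes were named to account for a count, after their values were seen. Calling was tested on simulated data with changes planted in better expressed genes, so that test says nothing of calls at the level of Hhip. Coordinates are those of GENCODE vM21 (mm10), and promoter sequences those of RefSeq (GRCm38.p6). In all, 6 alternatives were computed. Software was Python 3.11.15, numpy 2.4.6, pandas 2.3.3 and matplotlib 3.10.9.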

Additional observations from a re-analysis of the deposited data

Results flagged for a closer look

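For 7 member events of other kinds than first and last exons, Pcgf1-/- or Pcgf1-/-+Pcgf1 had a value above 0 where WT had 0 or no such event. Each rests on 1 sample, and an event missing from the WT list does not show that its exons were used otherwise in WT. For Gli2 in Pcgf1-/-, transcripts that skip the exon at 119002040 to 119002206 had 0.5305 FPKM and those that keep it 0.9795 FPKM. A Gli2 block at 118964450 to 119002206 was skipped at 0.5305 FPKM, and one at 118867979 to 118890401 was kept at 1.5101 FPKM, the whole Gli2 value of that sample. WT also held Gli2 transcripts without the exon at 119002040, at 0.3807 FPKM, in an event that skips exons 2 to 4. Transcripts that keep the exons from 118866572 to 118890401 had 0.5543 FPKM in WT. For Gli3 in Pcgf1-/-, alternative ends of 1 exon had 1.7426 FPKM (15659962 to 15660175) and 0.2102 FPKM (15659962 to 15660145). For Gli3 in Pcgf1-/-+Pcgf1, transcripts that keep the exons from 15478000 to 15548642 had 1.5259 FPKM, listed at 0 in WT. This is the same value as at the Gli3 first exon at 15463235 to 15463408 in that sample, and so not a separate signal.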

How the results depend on the processing

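Of 153 recomputed ratios of single members, 148 kept their side of the 2-fold limit, 2 fell short of it, 3 newly passed it and 0 called ratios were reversed. For members in Pcgf1-/- against WT (1 past 2-fold), the count was 2 with a pseudocount of 0.01 FPKM (Hhip and Ihh, the latter on a WT value of 0), 2 with first-exon rows alone (Hhip and Gli1), 0 with a pseudocount of 1 FPKM and 0 among genes of at least 1 FPKM. At this larger pseudocount Hhip had log2 ratios of -0.51 against WT and 0.31 from knockout to rescue. In Pcgf1-/-+Pcgf1 against Pcgf1-/- (1 member), it was 0 with a pseudocount of 1 FPKM and 0 at 1 FPKM or more, and against WT (0 members) it was 1 with a pseudocount of 0.01 FPKM, Ihh. For the 47 other pathway genes, a pseudocount of 0.01 FPKM gave 7, 7 and 5 in place of 3, 4 and 0, and one of 1 FPKM gave 1 in place of 4 for Pcgf1-/-+Pcgf1 against Pcgf1-/-. Against WT, first-exon rows gave 2 and last-exon rows 1 in place of 0. Median-of-ratios scaling changed 0 of these counts by more than 1.5 times; it moved the median log2 ratio of 5875 well-expressed genes from -0.06 to 0.05 in Pcgf1-/- against WT. No paired analysis was possible because each group had 1 sample. Depth limits Hhip, Shh and Ihh, whose values rest on about 1 to 24 fragments.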
